A study of Mus musculus with 4 samples.

Results

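The T-cell factor (TCF), E-protein and inhibitor of DNA binding (ID) genes described here are 9 transcription regulators among the 50600 genes counted. These 9 were named one by one, with earlier results of these data known. They comprise the high-mobility-group (HMG) box factors Tcf7 and Lef1, the E-protein genes Tcf3, Tcf12 and Tcf4, the ID genes Id3, Id2 and Id1, and the chromatin organiser Satb1. Their RNA was measured in 4 libraries of mouse primary T cells of strain C57BL/6NJ, numbered as biological replicates 1 to 4. All 4 libraries form a single group, with no contrast between treatments, genotypes or times, so the comparisons below set genes side by side within each library and libraries beside each other.

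No genetic change or agent is named for the cells. Sex was not collected, age is unknown and the 4 libraries carry the same donor entry, so the number of animals is not known. A CD4+ T-cell differentiation protocol is linked in the labels, and the alignment names recorded in the file headers hold the words Th0 and activated and a time of 24 hours, which were used for no grouping. The assay is called total RNA-seq, although the name of the library construction protocol speaks of poly(A)+.

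TCF1, the product of Tcf7, and LEF1 bind DNA through an HMG box. They recruit beta-catenin as a coactivator or Groucho/TLE proteins as corepressors, and are best known in T cells for thymocyte commitment and for the upkeep of naive and memory cells. E proteins are basic helix-loop-helix (bHLH) factors that bind E-box DNA as dimers and drive lymphocyte development. ID proteins share the helix-loop-helix but lack the basic DNA-binding stretch, so that they hold E proteins in dimers that cannot bind DNA. SATB1, which is abundant in thymocytes, anchors and loops chromatin.

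The motifs bound by these families can be read in the promoters of the members themselves. RefSeq promoter windows on GRCm38.p6, reaching from 250 bases before to 50 bases after a start, were at hand for 7 of the 9 members, with 17 windows in all. Some windows of Lef1 and some of Satb1 share bases, so the 17 are not separate stretches. The E-box CANNTG, which reads the same on both strands, stood in 15 of the 17 windows and in 72.3% of 32851 windows of all genes. The HMG-box motif CTTTGA, sought on both strands and read TCAAAG on the reverse one, stood in 1 of the 17 and in 16.0% of all. A match is a description, not a bound site, and matches of the motifs do not overlap each other in the windows shown. The windows of Tcf3 (chr10:80433586-80433885, minus strand), the E-protein gene of highest level, and of Id2 (chr12:25096043-25096342, minus strand), an inhibitor of E proteins, each hold 1 E-box. The Lef1 window with the HMG-box motif (chr3:131156044-131156343, plus strand) belongs to a start inside the gene, 45823 bases from its 5′ end, and overlaps none of the exons counted, so it is intronic in the annotation used for counting. They are shown 5′ to 3′, with E-boxes in capitals for Tcf3 and Id2 and the HMG-box motif in capitals for Lef1.
Tcf3: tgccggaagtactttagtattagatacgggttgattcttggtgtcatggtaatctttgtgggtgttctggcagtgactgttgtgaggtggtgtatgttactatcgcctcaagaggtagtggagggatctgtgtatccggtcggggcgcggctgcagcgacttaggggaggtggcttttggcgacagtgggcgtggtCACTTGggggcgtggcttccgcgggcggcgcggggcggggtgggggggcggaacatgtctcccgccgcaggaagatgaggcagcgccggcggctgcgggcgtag
Id2: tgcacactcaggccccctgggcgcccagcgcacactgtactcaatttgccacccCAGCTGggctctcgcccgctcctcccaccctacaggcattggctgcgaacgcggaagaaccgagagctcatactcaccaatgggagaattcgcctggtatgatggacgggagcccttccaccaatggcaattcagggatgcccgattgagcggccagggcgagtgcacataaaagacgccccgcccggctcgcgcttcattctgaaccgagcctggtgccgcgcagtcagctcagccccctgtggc
Lef1: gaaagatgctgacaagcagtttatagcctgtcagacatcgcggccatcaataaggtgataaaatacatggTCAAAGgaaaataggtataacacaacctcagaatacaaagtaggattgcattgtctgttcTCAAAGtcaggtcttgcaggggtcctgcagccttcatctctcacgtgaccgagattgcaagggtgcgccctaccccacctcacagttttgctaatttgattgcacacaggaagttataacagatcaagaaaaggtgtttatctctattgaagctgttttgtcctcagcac
The single E-box is CACTTG in Tcf3 and CAGCTG in Id2, while Lef1 holds TCAAAG at 2 places. The 1 window of Id3 held no CANNTG. It lies wholly within exons of the counted gene, as do 5 of the 17 windows in all, so not every window lies upstream of the annotated gene. No factor binding was measured here, so the motifs are not tied to the levels that follow.

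Levels are in TPM (transcripts scaled by gene length and library total), computed from the deposited counts and the exon length of each gene. The libraries held 60102919, 273136467, 48608896 and 47558517 fragments assigned to genes in replicates 1 to 4. All 10 T-cell markers stood at 10 TPM or more in every library, led by the receptor constant genes Trac (1676 TPM on average), Trbc2 (1009 TPM) and Trbc1 (727 TPM). Of the members, 7 of 9 stood at 10 TPM or more in all 4 libraries, a level reached by 16.0% of all genes counted, and 8 of 9 at 1 TPM or more, against 22.7%. In RNA from many cells, fewer cells of a type and less RNA per cell cannot be told apart.

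**Figure D1:**
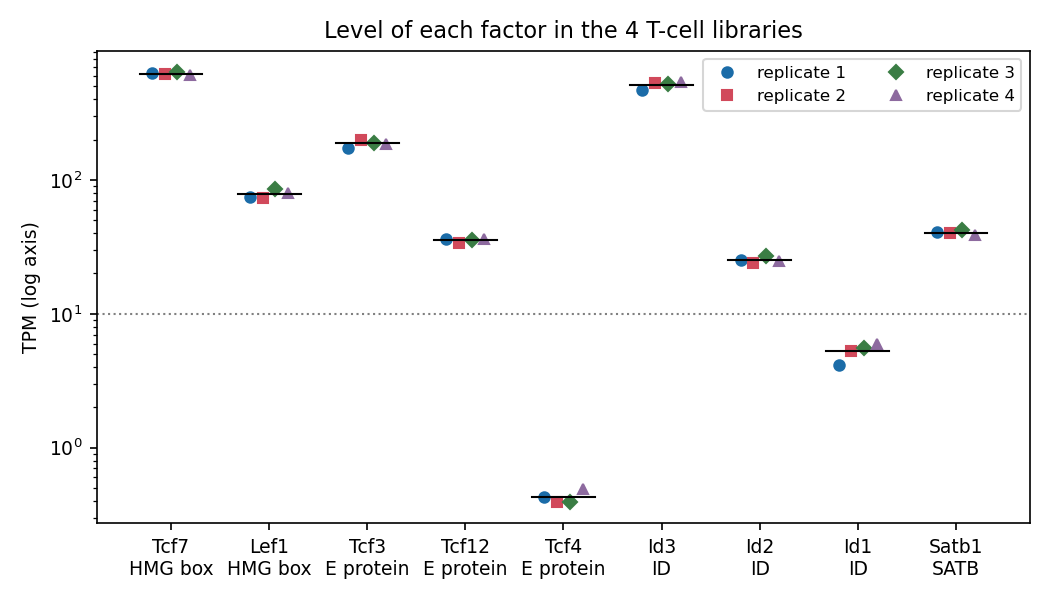
TPM on a log axis of each of the 9 factors, with 1 point per library and a bar at the mean of the 4 libraries. Tcf7 and Id3 stand above 400 TPM in every library and Tcf4 below 1 TPM, and the points of one gene lie close together.

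Among the HMG-box factors, Tcf7 (ENSMUSG00000000782.15, mm10 chromosome 11, 52252371 to 52283014, minus strand) was the most abundant member. It had 627, 614, 636 and 604 TPM in replicates 1 to 4, a mean of 620 TPM ± 14.4 (SD, n = 4). The 4 libraries lay within a narrow band, with a coefficient of variation (SD over mean) of 2.32%. Of the 11483 genes at 1 TPM or more in all libraries, 1.85% had a higher mean.

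Lef1 (ENSMUSG00000027985.14, chromosome 3, 131110471 to 131224356, plus strand) had 74.2, 72.8, 86.0 and 79.8 TPM in replicates 1 to 4, a mean of 78.2 TPM ± 6.01 (SD, n = 4). Replicates 3 and 4 were above replicates 1 and 2, with a coefficient of variation of 7.68%. Tcf7 was above Lef1 in 4 of 4 libraries without overlap, by 2.97 ± 0.10 in log2(TPM + 1) (SD, n = 4). The ratio of their TPM was 8.44, 8.43, 7.40 and 7.57 in replicates 1 to 4. With the longest coding transcript as gene length its mean was 3.35 ± 0.233, and with the median one 3.81 ± 0.265 (SD, n = 4). With 4 libraries, the exact two-sided sign-flip test used for every pair of genes here cannot give less than p = 0.13 (rounded), and it gave 0.13 for each pair, also after adjustment over the pairs.

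The remaining genes of the TCF/LEF family were low. Tcf7l1, which acts as a repressor in stem cells, had 1.18 TPM ± 0.150, and Tcf7l2, the main effector of Wnt signalling in the gut, had 15, 32, 6 and 6 fragments in replicates 1 to 4. Tcf7 made up 88.6% and Lef1 11.2% of the summed TPM of these 4 genes, averaged over libraries. With the longest coding transcript as gene length the shares were 76.8% and 23.0%, and with the median one 79.0% and 20.8%.

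Among the E-protein genes, Tcf3 (ENSMUSG00000020167.14, chromosome 10, 80409514 to 80433647, minus strand) led. It had 174, 198, 190 and 187 TPM in replicates 1 to 4, a mean of 187 TPM ± 9.76 (SD, n = 4). Replicate 1 was the lowest and replicate 2 the highest, and 9.32% of the 11483 genes had a higher mean. Tcf3 gives rise by splicing to a pair of E proteins that differ in the bHLH exon, which gene counts do not separate.

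Tcf12 (ENSMUSG00000032228.16, chromosome 9, 71842688 to 72111871, minus strand), which encodes the E protein HEB of early thymocytes, had 35.9, 34.0, 35.8 and 36 TPM in replicates 1 to 4. Its mean was 35.4 TPM ± 0.952 (SD, n = 4), with replicate 2 set below the other 3 libraries. Tcf12 was below Tcf3 in 4 of 4 libraries, with a difference of -2.37 ± 0.11 in log2(TPM + 1) and no overlap (SD, n = 4). The size of this difference rests on the gene length used: it was -1.54 with the longest and -0.13 with the median coding transcript in place of all exon bases, and -0.46 in CPM (counts scaled by library total only).

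Tcf4 (ENSMUSG00000053477.16, chromosome 18, 69343356 to 69689079, plus strand), the E protein that plasmacytoid dendritic cells depend on, had 0.430, 0.395, 0.395 and 0.492 TPM in replicates 1 to 4. These values rest on 209, 857, 153 and 189 fragments over 27382 exon bases, so the gene was detected well above the 3 fragments taken as the detection floor. Its mean was 0.428 TPM ± 0.0456 (SD, n = 4), with replicate 4 the highest. Tcf3 was above Tcf4 by 7.04 ± 0.10 and Tcf12 above Tcf4 by 4.67 ± 0.04 in log2(TPM + 1), each in 4 of 4 libraries. Averaged over libraries, Tcf3 made up 83.9% ± 1.01, Tcf12 15.9% ± 0.992 and Tcf4 0.193% ± 0.0239 of the summed E-protein TPM (SD, n = 4). Divided by the median coding transcript instead, the shares were 51.6% ± 1.88 for Tcf3 and 47.2% ± 1.81 for Tcf12, at 119 and 109 TPM.

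Among the ID genes, Id3 (ENSMUSG00000007872.3, chromosome 4, 136143497 to 136145755, plus strand), which is induced by antigen-receptor signals in thymocytes, led. It had 469, 529, 522 and 534 TPM in replicates 1 to 4, a mean of 513 TPM ± 30.0 (SD, n = 4). Replicate 1 was the lowest, and the other 3 libraries lay close together. Only 2.40% of the 11483 genes had a higher mean, and Id3 lay below Tcf7 by a difference of 0.27 ± 0.11 (Tcf7 minus Id3, log2(TPM + 1)).

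Id2 (ENSMUSG00000020644.8, chromosome 12, 25093801 to 25096092, minus strand), best known for innate lymphoid, NK and effector T cells, had 25.2, 23.9, 27.1 and 24.8 TPM in replicates 1 to 4. Its mean was 25.2 TPM ± 1.38 (SD, n = 4), and no library stood apart. Id1 (ENSMUSG00000042745.9, chromosome 2, 152736251 to 152737410, plus strand), best known as a target of bone morphogenetic protein (BMP) signals in endothelium and stem cells, had 4.13, 5.28, 5.55 and 5.96 TPM. Its mean was 5.23 TPM ± 0.785 (SD, n = 4), with replicate 1 the lowest, on 85, 485, 91 and 97 fragments.

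Id3 was above Id2 by 4.29 ± 0.12 and above Id1 by 6.37 ± 0.11, and Id2 above Id1 by 2.08 ± 0.20, in log2(TPM + 1), each in 4 of 4 libraries (SD, n = 4). Id3 accordingly made up 94.4% ± 0.331 of the summed ID TPM, with 4.65% from Id2 and 0.958% from Id1 on average. The fourth ID gene, Id4, known from neural progenitors and the mammary gland, had 1 fragment in replicate 2 and none in the other libraries.

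The ID genes together had 498, 558, 555 and 564 TPM in replicates 1 to 4, a mean of 544 TPM ± 30.6, against E-protein genes with 211, 232, 226 and 223 TPM, a mean of 223 TPM ± 9.06 (SD, n = 4 each). The sums did not overlap, replicate 1 was the lowest for both, and the difference in log2(TPM + 1) was 1.28 ± 0.04 with the ID sum higher in 4 of 4 libraries. Their ratio was 2.37, 2.40, 2.46 and 2.53 in replicates 1 to 4, a mean of 2.44 ± 0.0699 (SD, n = 4). This ratio rests on the gene length used, with a mean of 2.15 for the longest and 1.45 for the median coding transcript. In CPM the ID sum was the lower one, with a difference of -0.46 in log2(value + 1). The ratio of Id3 to Tcf3, the leading gene of each family, was 2.75 ± 0.0823 (SD, n = 4). RNA levels give no measure of how much ID and E protein the cells held.

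**Figure D2:**
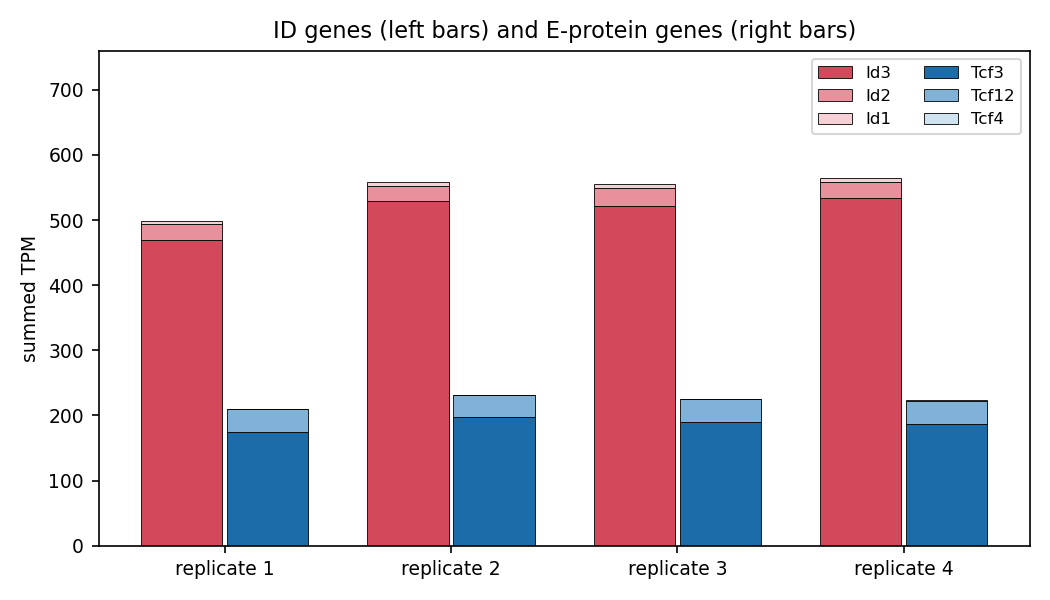
Summed TPM of the ID genes (left) and of the E-protein genes (right) in each library, divided by gene, on a linear axis from 0. Id3 fills most of the ID bars, which reach 498 to 564 TPM, and Tcf3 most of the E-protein bars, which reach 211 to 232 TPM.

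Satb1 (ENSMUSG00000023927.15, chromosome 17, 51736187 to 51833290, minus strand) had 40.7, 40.0, 42.2 and 38.8 TPM in replicates 1 to 4, a mean of 40.4 TPM ± 1.4 (SD, n = 4). The libraries were close together, with replicate 3 the highest. Tcf7 was above Satb1 by 3.91 ± 0.02 in log2(TPM + 1) in 4 of 4 libraries, and by 2.41 with the longest and 1.85 with the median coding transcript as gene length.

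By mean TPM the members ran from Tcf7 through Id3, Tcf3, Lef1, Satb1, Tcf12, Id2 and Id1 to Tcf4. In each of the 8 neighbouring pairs the gene of higher mean was higher in 4 of 4 libraries, and the ranges did not overlap. The closest neighbours were Satb1 and Tcf12, at a difference of 0.19 ± 0.06 (Satb1 minus Tcf12) in log2(TPM + 1). On this scale the steps from Id1 to Tcf4 (2.12 ± 0.18) and from Id2 to Id1 (2.08 ± 0.20) were the widest (SD, n = 4). The added 1 shrinks the step to Tcf4, whose mean lies below 1 TPM. With a pseudocount of 0.1 these steps were 3.33 ± 0.23 and 2.26 ± 0.23 (SD, n = 4).

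Several of these steps depended on the transcript length by which a count is divided. TPM used all exon bases of a gene, which can exceed any single transcript. Tcf4 has 46 annotated coding transcripts, Tcf3 has 12, Tcf12 11 and Satb1 10. Id3 has 1, of 1278 bases, which its 1791 exon bases also exceed. With the longest coding transcript in place of all exons, Lef1 stood at 143 TPM, Satb1 at 89.1 TPM, Tcf12 at 63.1 TPM and Id2 at 11.8 TPM. For Id2 that transcript, from the later annotation release vM21, has 1969 bases, more than the 1270 exon bases counted. Its median coding transcript has 1270 bases as well, yet Id2 stood at 11.3 TPM with that length. Each alternative length was applied to all genes, so the library total that scales every TPM also changed. With the median coding transcript, Tcf12 stood at 109 TPM, Satb1 at 95.5 TPM, Lef1 at 91.1 TPM and Tcf4 at 2.85 TPM. The order of Tcf7 and Id3 turned under the longest length, at 476 and 520 TPM. The orders of Lef1 and Satb1, Satb1 and Tcf12, and Id1 and Tcf4 turned under the median length. The mean ratio of ID to E-protein TPM was 2.15 with the longest and 1.45 with the median length, with the ID sum above the E-protein sum in 4 of 4 libraries under both. Among differences that kept their direction, Tcf3 minus Lef1 was 0.38 with the longest and 0.39 with the median length, against 1.25 with all exon bases, and Tcf12 minus Id2 was 2.33 and 3.16, against 0.47, in log2(TPM + 1). In CPM, the ID sum was below the E-protein sum, with a difference of -0.46 in log2(value + 1). Which transcript forms the cells used was not measured by these gene counts.

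**Figure D3:**
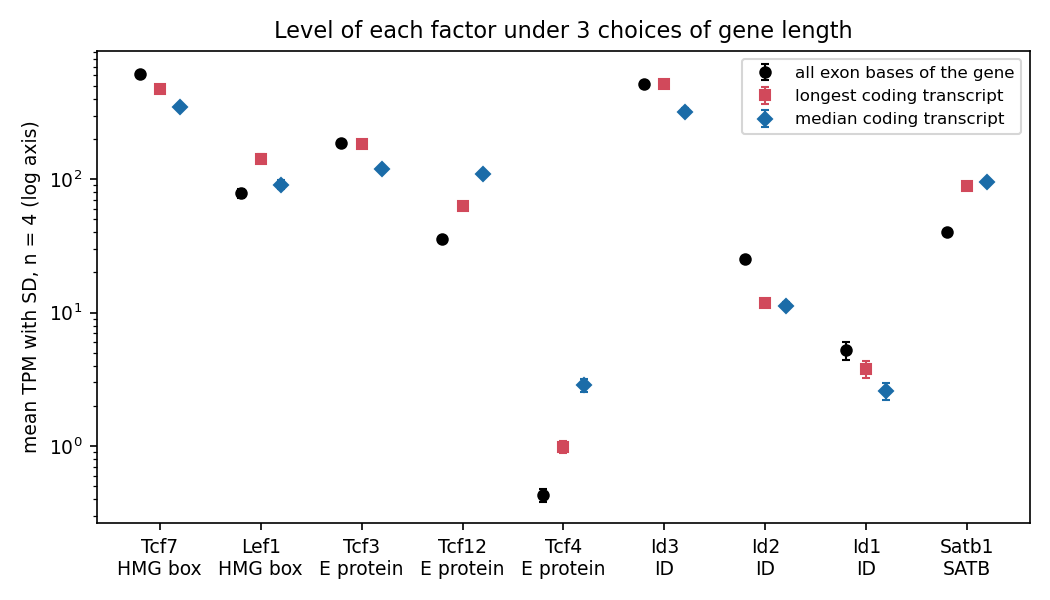
Mean TPM of the 9 factors on a log axis when counts are divided by all exon bases, by the longest or by the median coding transcript, with bars of 1 SD over the 4 libraries. Id3 and Tcf7 stay highest. With the median coding transcript all 9 factors move by more than their spread, and with the longest all but Tcf3 and Id3 do.

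No member was called for variation between libraries beyond the spread usual for genes of its level. In an intercept-only negative binomial model fitted with edgeR to 12712 genes, 47 genes, or 0.370%, passed an adjusted p of 0.05 for excess variation, and 5.12% had an unadjusted p under 0.05. Of the 9 members, 0 passed, and 0 had an unadjusted p under 0.05. Lef1 had the highest residual deviance (the spread between libraries left by the model), at 4.95, above 85.0% of all genes tested, with an unadjusted p of 0.175 and an adjusted p of 1.00 by edgeR. Tcf7 had the lowest, at 0.279, above 5.70% of genes. The other 7 members lay between 0.745 for Id2 and 2.28 for Id3, and the median was 1.06 over members, against 1.94 over all genes tested. The median coefficient of variation was 5.48% over members, against 7.53% over all genes tested. Neither comparison of medians is matched for level. The median residual deviance was 2.67 among the genes of lowest level (around 0.423 TPM) and 1.17 among those of highest level (around 462 TPM). For Id1, whose coefficient of variation was the highest at 15.0%, counting error alone in the library with the fewest fragments amounted to 10.8%, so smaller differences of Id1 were not detectable at this depth. For Tcf4 the coefficient of variation was 10.6%, the counting error 8.08% and the spread allowed by the model 18.4%.

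**Figure D4:**
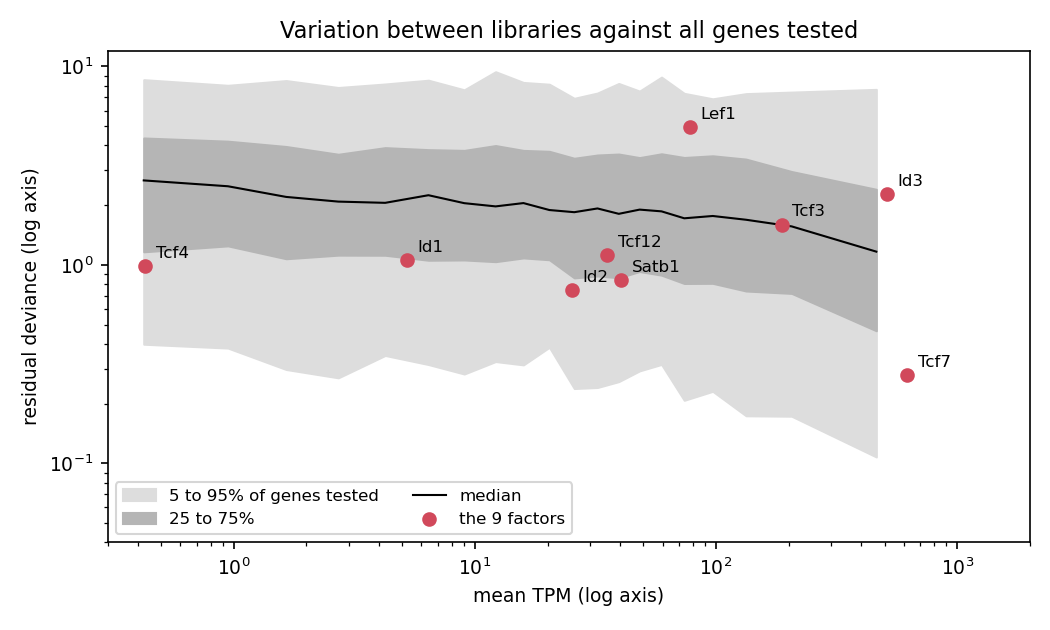
Residual deviance of each factor against its mean TPM, both on log axes, over shaded bands that hold 5 to 95% and 25 to 75% of all 12712 genes tested in bins of level, with a line at the median. Lef1 (4.95) lies above the inner band. Id3 and Tcf7 belong to the last bin but stand to the right of its median level (462 TPM), where the bands end. Tcf7 (0.279) lies below the 25% mark of that bin (0.466). None of the 9 factors lies higher than the outer band reaches.

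Which library was lowest differed from member to member. Replicate 1 was lowest for Tcf3, Id3 and Id1, replicate 2 for Lef1, Tcf12 and Id2, replicate 3 for Tcf4, and replicate 4 for Tcf7 and Satb1. Base composition moved with the libraries: over 12692 genes, Spearman's rho between a gene's deviation from its mean and the GC content of its sequence was -0.37 in replicate 1 and stood at 0.09, 0.20 and 0.21 in replicates 2 to 4. Tcf3 (61.5% GC), Id3 (55.6%) and Id1 (55.0%), the members lowest in replicate 1, were also the 3 of highest GC content. Next in GC content were Tcf7 (54.3%) and Lef1 (50.5%), with deviations of 0.016 and -0.071 in log2(TPM + 1) in replicate 1. With the GC trend of each library removed, the residual deviance was lower for Id3 (0.765), Tcf3 (0.626), Id1 (0.769) and Tcf4 (0.950) and higher for Lef1 (5.60), Tcf12 (1.23), Satb1 (0.991), Tcf7 (0.882) and Id2 (0.875). The part of base composition in the differences of members between libraries, or in level between members, was not tested.

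**Figure D5:**
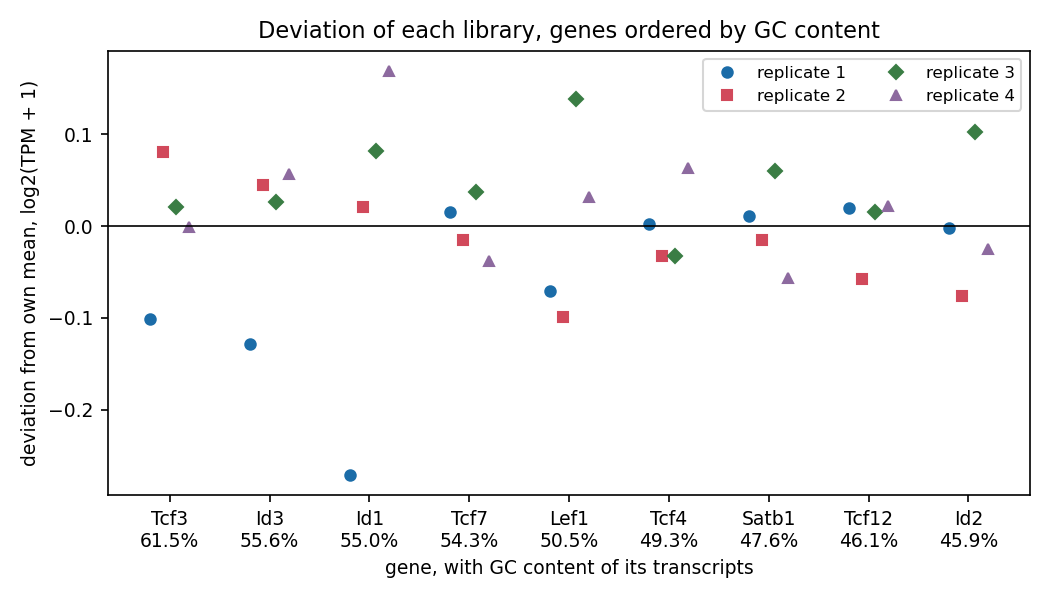
Deviation of log2 values from the 4-library mean for each factor, with 1 point per library and the factors ordered by GC content of the gene. Replicate 1 lies lowest for Tcf3, Id3 and Id1, the 3 factors of highest GC content.

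Around the HMG-box factors, 15 of 21 genes of the beta-catenin arm stood at 10 TPM or more in every library. For this list and those below, the share over all genes counted is 16.0%. The lists were chosen with earlier results of these data known, so their shares are a description only. Ctnnb1, which encodes beta-catenin itself, averaged 228 TPM ± 7.36, the kinase gene Gsk3a 206 TPM ± 11, the kinase gene Csnk1a1 136 TPM ± 10.5 and the scaffold gene Axin1 114 TPM ± 6.31 (SD, n = 4). Axin2, a Wnt feedback gene singled out after its values were seen, had 10.8, 9.96, 14.8 and 11.8 TPM in replicates 1 to 4, with replicate 3 the highest. Of the genes of the Groucho/TLE family, 3 of 6 reached 10 TPM in every library. They were Aes, a short family member, at 248 TPM ± 18.6, Tle3 at 65.8 TPM ± 2.73 and Tle4 at 33.4 TPM ± 2.42.

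Of 12 T-cell genes linked to TCF1 and LEF1, 7 stood at 10 TPM or more in every library. They were led by the coreceptor gene Cd4 at 697 TPM ± 37.9 and the homing receptor gene Ccr7 at 605 TPM ± 15.1, followed by Bcl11b, a guardian of T-cell identity, at 68.7 TPM ± 2.09 and Slamf6, a surface marker of TCF1-high T cells, at 33.5 TPM ± 1.5 (SD, n = 4). Ccr7 was also among the 3 genes nearest to Tcf7 by Euclidean distance over the 4 values of log2(TPM + 1). These were the cytokine gene Lta (0.11), the replication helicase gene Mcm4 (0.12) and Ccr7 (0.12), a likeness of level that rests on 4 libraries.

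Around the E proteins, the tissue-restricted bHLH partners were largely silent, with 0 of 13 at 10 TPM or more in every library, 11 below 1 TPM in all and 9 without a fragment. Tal2, known from leukaemia and midbrain development and singled out after its values were seen, had 6.24, 8.72, 9.62 and 7.56 TPM in replicates 1 to 4. Of the E-protein coregulators, 6 of 10 reached 10 TPM in every library. Ldb1, an adaptor of bHLH complexes, averaged 207 TPM ± 5.63, the acetyltransferase gene Kat2a 132 TPM ± 6.48, Ep300 35.8 TPM ± 3.09 and its relative Crebbp 30.6 TPM ± 2.57 (SD, n = 4).

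Of 13 lymphocyte genes linked to E proteins, 5 reached 10 TPM in every library. Cdkn1a, an inhibitor of the cell cycle, averaged 434 TPM ± 46.7, the cytokine-signal inhibitor Socs1 80.5 TPM ± 1.34, the receptor gene Notch1 74.0 TPM ± 8.79 and the repressor gene Gfi1 62.5 TPM ± 3.37 (SD, n = 4). The genes nearest to Tcf12 were Ttc33 (0.04), the cyclin-dependent kinase gene Cdk6 (0.04) and the peptidase gene Dpp8 (0.05).

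Of 16 genes of signals known to induce Id genes, 10 reached 10 TPM in every library. The early growth response genes, which antigen-receptor signals switch on ahead of Id3 in thymocytes, stood at 266 TPM ± 34.0 for Egr3, 67.1 TPM ± 5.42 for Egr1 and 49.4 TPM ± 2.07 for Egr2, and Smad2, a mediator of TGF-beta signals, at 74.7 TPM ± 3.06 (SD, n = 4). The genes nearest to Id3 were the kinase gene Csk (0.11), the pyrimidine synthesis gene Cad (0.12) and Prrc2a (0.13).

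Of 13 SATB1 cofactors and linked genes, 11 reached 10 TPM in every library. The chromatin remodeller gene Chd4 averaged 426 TPM ± 17.7, the inhibitory receptor gene Pdcd1 407 TPM ± 25.2, Mta2, which acts with Chd4 in the NuRD complex, 404 TPM ± 9.22 and the interleukin receptor gene Il2ra 296 TPM ± 11 (SD, n = 4). Over all lists, which hold 156 genes beside the members, 103 could be tested for variation between libraries. By edgeR 0 passed the adjusted threshold and 10, or 9.71% of those tested, had an unadjusted p under 0.05, against 5.12% of all genes.

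Markers of other cells in which these factors are abundant were mostly near 0. Of the B-cell markers, 0 of 8 reached 10 TPM in every library, with a summed level of 3.61 to 7.55 TPM over libraries, with Cd79b at 1.57 TPM. The plasmacytoid dendritic cell markers, set beside Tcf4, summed to 134 to 159 TPM, nearly all from Irf8 (122 TPM) and Pacsin1 (20.5 TPM), while Siglech, Klk1 and Cox6a2 had no fragment. The thymocyte markers summed to 3.30 to 4.15 TPM, led by Cd1d1 (2.19 TPM) and Cd8a (0.839 TPM), with Rag2 at 0 fragments.

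The innate lymphoid and NK markers, set beside Id2, summed to 0.667 to 1.5 TPM, led by Eomes (0.515 TPM) and Il1rl1 (0.258 TPM), with Klrg1 and Klrb1c at 0 fragments. The endothelial and stromal markers, set beside Id1, summed to 9.19 to 14.4 TPM, mostly from Pecam1 (11 TPM), with Col1a1 at 0.162 TPM and Cdh5 and Col1a2 at 0 fragments. The myeloid markers summed to 0.518 to 2.32 TPM, led by Fcer1g (0.711 TPM) and Adgre1 (0.312 TPM), with S100a8, S100a9 and Csf1r at 0 fragments. For the 11 markers without a fragment, 3 fragments in a library would have amounted to at most 0.410 TPM. The part of such cells in the levels of Tcf4, Id2 and Id1 was not tested.

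In all, 22 annotated genes overlapped 5 of the members, none above 2.77 TPM on average, and 3 such pairs shared exon bases. Lef1 shares exon bases with Gm43352 on the opposite strand, which had 106, 787, 102 and 152 fragments in replicates 1 to 4. Satb1 shares exon bases with Gm36931 on its own strand (22, 27, 28 and 9 fragments) and with Gm6934 on the opposite strand (0, 52, 19 and 36 fragments). Counting was by strand, and fragments that overlapped several genes were not counted, so the Satb1 count lacks fragments that lie in the bases shared with Gm36931.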

How the data were processed

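The deposited values are counts: per the file headers, they come from featureCounts 1.4.6-p4, which took read pairs aligned at both ends and assigned them to GENCODE vM13 genes by their exons, with strand setting 2 (reverse-stranded), on alignments named as STAR output. The build is mm10 per the labels. TPM was computed here from counts and exon length. Symbols came from GENCODE vM21 and matched 50376 of 50600 identifiers. Alternative lengths came from coding transcripts of vM21, or from all transcripts of a gene without a coding one. The 224 genes without any transcript there kept their exon length.

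The replicate numbers are those of the labels. Nothing says that the libraries came from separate animals, so a p-value reflects no more than how these samples differ among themselves, which may be technical. To see whether a library was deposited more than once, counts were compared by chi-square, which gave 9.67 to 31.0 units per degree of freedom over the pairs of libraries, against counting error alone. For 1 kb of exons, 3 fragments amount to 0.0379 TPM in the deepest and 0.214 TPM in the shallowest library. Such floors include counting error alone.

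Pairs of genes were compared within libraries by an exact permutation test that flips signs (two-sided), on differences of log2(TPM + 1), a scale that understates changes of low genes, with Benjamini-Hochberg adjustment. Variation was tested with edgeR 4.0.16 (R 4.3.3) on genes past filterByExpr: residual deviance of an intercept-only model with trended dispersion against chi-square with 3 degrees of freedom, adjusted over all genes and tested on simulated data. A quasi-likelihood contrast needs a second group and was not made. DESeq2 1.42.0 size factors, a thinned replicate 2, other filters, pseudocounts, dispersions and lengths, a GC correction and leaving out each library served as alternatives. Python 3.11.15 with scipy 1.17.1 and matplotlib 3.10.9 did the rest. Protein sequences were not used here.

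The members and gene lists were chosen with earlier results of these data known. Named were all members, the paralogs, up to 4 genes per list of highest mean TPM among those at 10 TPM or more in all libraries, any list gene past the variation threshold, 2 per list of other cell types, 3 nearest genes of Tcf7, Tcf12 and Id3, and overlapping genes. Some genes that this rule names are not reported here.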

Additional observations from a re-analysis of the deposited data

Results flagged for a closer look

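Of 64 sets of 4 values looked at, 4 held a library far from the other 3, and chance gives about 1 in 20 sets. Tcf12 had 34.0 TPM in replicate 2, against 35.8 to 36 TPM in the others. The coregulator gene Ldb1 had 199 TPM in replicate 1, against 210 to 211 TPM. Tcf7l2 had 0.0967 TPM in replicate 1, against 0.0463 to 0.0489 TPM, on 15 fragments there and 32, 6 and 6 in replicates 2 to 4. Id4 had 0.00761 TPM in replicate 2, which is 1 fragment in the deepest library, and 0 in the others.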

How the results depend on the processing

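No paired analysis was possible because there is only 1 group, so that no samples could be paired across groups, and genes were compared within libraries instead. In 7 instances a difference between genes turned its direction, each time with a change of the length that counts are divided by. Under the longest coding transcript Tcf7 minus Id3 was -0.13. Under the median coding transcript Lef1 minus Satb1 was -0.070, Satb1 minus Tcf12 -0.19 and Id1 minus Tcf4 -0.10. Without length, in CPM, Lef1 minus Satb1 was -0.16, Id1 minus Tcf4 -0.68 and the ID sum minus the E-protein sum -0.46, all in log2(value + 1). The alternatives with transcript lengths and with the GC trend removed were chosen after seeing the data. Outside the length choice, member levels moved by -4.96% to 7.02%. The members called for variation numbered 0 under all 10 alternatives run, with the lowest adjusted p by edgeR at 0.933 for Lef1 without replicate 4 (unadjusted 0.0724). Over all genes, the 47 calls became 148 with no filter on low counts (31 shared) and 861 with a common dispersion (36 shared). Leaving out 1 library gave 25 (without replicate 2) to 40 (without replicate 1). With 1 library left out, the exact sign-flip permutation test reaches p = 0.25 at the lowest. Counting error limits Id1 and Tcf4 most.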
